A study of Mus musculus with 6 samples.

Results

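The transcription factor NRF2, its inhibitor KEAP1 and 8 antioxidant enzyme genes that NRF2 is known to activate were measured in hypoxic mouse kidney. The 10 genes are Nfe2l2, which encodes NRF2, Keap1, Nqo1, Gclc, Gclm, Txnrd1, Srxn1, Gsr, G6pdx and Prdx1. They were chosen by name, each matched 1 of the 54532 named genes of the count table, and all 10 passed the filter on low counts that left 15225 genes for testing. The kidneys came from mice of 2 genotypes, WT and Lpar3-/-, with 3 libraries of each. Mice of both groups had breathed 8% oxygen for 12 h at normal pressure before the kidneys were taken, so the comparison is one of genotype under hypoxia. Kidneys from room air were not analysed here, and the sources used here give no strain, sex or age and do not describe the mutant allele. The labels do not state that each library came from its own animal, so the p-values rest on a spread between libraries that may be partly technical.

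NRF2 is made continuously and, in unstressed cells, is held by KEAP1 and passed to a ubiquitin ligase for destruction. Oxidants and electrophiles modify cysteines of KEAP1, NRF2 then builds up in the nucleus, pairs with a small MAF protein and binds antioxidant response elements near its target genes. The targets make glutathione, keep thioredoxin and glutathione reduced, supply NADPH and detoxify quinones. In the kidney the pathway is best known in proximal tubule cells, which carry a high load of reactive molecules and blood-borne toxins. Because NRF2 is controlled mostly at the level of protein, the mRNA of its targets is the usual readout of its activity, and Nfe2l2 mRNA is not.

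Stretches upstream of an annotated start of 4 of the genes are shown for their matches to the antioxidant response element core, a variant of it or the AP-1 motif. The antioxidant response element is the feature by which these genes are known as a group. The windows searched were the RefSeq windows of GRCm38.p6, 300 bases each, from 250 before to 50 after an annotated start of a gene. The Txnrd1 stretch lies inside that gene, which begins at 82833951 on chromosome 10, so it is upstream of an internal start only. Of the 10 genes, 8 had at least 1 window, with 10 windows in all (Gclc and Gsr were not matched). Both strands were searched for the core TGACNNNGC, its variant TGAGNNNGC and the AP-1 motif TGANTCA, which overlaps the element where its letters coincide. Matches at least 25 bases before the start and outside annotated exons are printed 5′ to 3′ on the gene's strand with 25 bases on each side where the window allows, matched letters in capitals. The build is GRCm38.p6.
Srxn1, chr2:152105341-152105512, plus strand: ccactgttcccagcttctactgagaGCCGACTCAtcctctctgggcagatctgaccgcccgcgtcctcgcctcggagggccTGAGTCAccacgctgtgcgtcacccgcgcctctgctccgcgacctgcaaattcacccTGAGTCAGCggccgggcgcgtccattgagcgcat
Prdx1, chr4:116685441-116685499, plus strand: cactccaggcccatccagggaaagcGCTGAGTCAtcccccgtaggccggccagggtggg
Prdx1, chr4:116685349-116685393, plus strand: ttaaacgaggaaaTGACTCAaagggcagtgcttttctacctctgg
Gclm, chr3:122245398-122245456, plus strand: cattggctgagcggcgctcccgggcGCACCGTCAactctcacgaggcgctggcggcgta
Txnrd1, chr10:82859089-82859147, plus strand: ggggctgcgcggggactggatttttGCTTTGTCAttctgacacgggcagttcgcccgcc

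The core TGACNNNGC was found in the windows of 6 of the 8 genes (Nfe2l2, Srxn1, Gclm, Prdx1, Txnrd1 and G6pdx), in 6 of their 10 windows, against 12.4% of all 32851 windows. The variant TGAGNNNGC was found for 2 genes, Srxn1 and Prdx1, against 17.6% of all windows, and the AP-1 motif for the same pair, against 7.81%. Srxn1 had 2 AP-1 matches upstream, 1 of which, starting 45 bases before the start, is also a match to the variant. Another variant match of Srxn1 starts 158 bases before the start. The core match of Srxn1 lies after the start, outside the printed stretch. The Prdx1 match that starts 237 bases before the start is to the AP-1 motif only. The Prdx1 match that starts 133 bases before the start reads as the core on the opposite strand and as an AP-1 motif. No match to any of the 3 was found in the windows of Nqo1 and Keap1, which says only that these letters are not in those windows. The genes were listed for being targets, so these shares are a description.

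The libraries held 15953794 to 17940438 counts of named genes, with 6.80% to 7.97% from mitochondrially encoded genes. Lpar3, the targeted gene, had 645, 634 and 577 counts in WT and 672, 592 and 580 in the libraries labelled Lpar3-/-, so its counts give no check of the labels, on which every direction given here rests. Kidney markers were abundant throughout. A list of 10 proximal tubule markers summed to 28830 to 33770 CPM (counts scaled to 1 common library total, with TMM factors) in WT and 29090 to 30580 CPM in the libraries labelled Lpar3-/-, and none of the 10 was at 0. WT replicate 2 stood apart. Its 10 markers of tubular injury summed to 371 CPM, against 224 and 229 CPM in the other WT libraries and 204 to 213 CPM in those labelled Lpar3-/-. Its 11 macrophage markers summed to 205 CPM, against 136 and 140 CPM in WT and 113 to 134 CPM in the others, and none of the markers of either list was at 0 in all libraries. The sum of 8 adipocyte markers was 183 to 345 CPM in WT and 124 to 198 CPM in the others, and that of 7 podocyte and endothelial markers 532 to 577 and 544 to 579 CPM. The sum of 8 markers of other tubule segments was 4476 to 5074 CPM in WT and 5306 to 5656 CPM in the others, without overlap. The 7 erythroid markers summed to 386 to 653 and 365 to 615 CPM, and the 5 liver markers, with Fgb at 0 in every library, to 52.8 to 106 and 48.2 to 61.2 CPM. Fewer cells of a type and less RNA per cell cannot be told apart in such bulk samples.

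All 10 genes were well expressed, and their order was almost the same in every library. Levels were compared between genes in FPKM, reads per kilobase of gene length scaled to library size, as deposited by the authors. Prdx1, a peroxiredoxin that reduces hydrogen peroxide, was highest with a mean of 192 FPKM over the 6 libraries, above 98.5% of tested genes. Gsr (glutathione reductase) followed at 77.9 FPKM. The catalytic and modifier subunits of glutamate-cysteine ligase, Gclc and Gclm, had 59.3 and 46.1 FPKM. Srxn1, Nqo1, Txnrd1 and Nfe2l2 lay between 33.0 and 22.5 FPKM. G6pdx (10.3 FPKM) and Keap1 (9.52 FPKM) were lowest, above 70.6% and 68.9% of tested genes. Neighbours in this order kept it in 6 of 6 libraries, except Srxn1 over Nqo1 (5 of 6), Txnrd1 over Nfe2l2 (5 of 6) and G6pdx over Keap1 (4 of 6), pairs whose ranges overlapped.

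**Figure D1:**
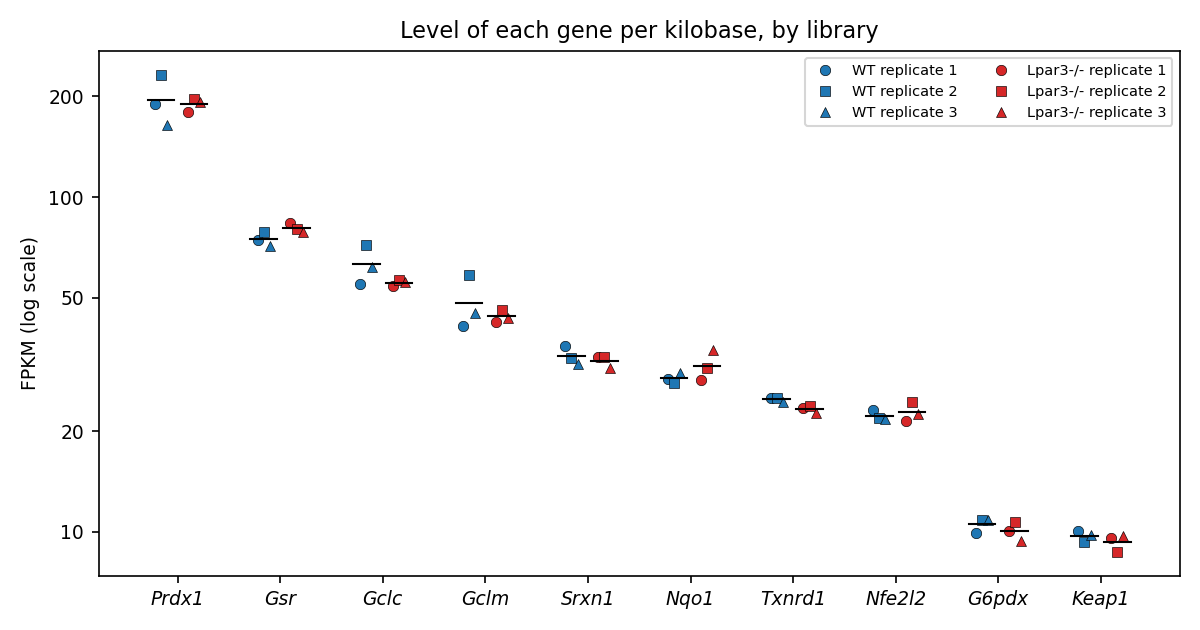
FPKM of each gene on a log scale, 1 point per library (blue WT, red labelled Lpar3-/-, marker shape for the replicate number), with lines at the group means, n = 3 each. The genes span from about 10 FPKM for Keap1 to 192 FPKM for Prdx1. The red and blue points of most genes lie close together, while WT replicate 2 (blue square) lies above all red points for Gclm, Gclc and Prdx1.

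None of the 10 genes differed between the genotypes at an adjusted p below 0.05. By the quasi-likelihood test of edgeR, with Benjamini-Hochberg adjustment over the 15225 genes, 0 of 10 were called, against 57 of all genes tested (0.374%), and 0 of 10 had an unadjusted p below 0.05, against 9.18% of all genes. DESeq2 and limma-voom also called 0, each with 0 at an unadjusted p below 0.05. The lowest adjusted p among the members was 0.586, for Gclc. Log2 fold changes, the libraries labelled Lpar3-/- over WT, ran from -0.18 (Gclc) to 0.12 (Nqo1) with a median of -0.058, where the median of all tested genes was -0.0036. Of the 10 members 7 had a negative fold change, against 51.1% of all genes. Without WT replicate 2, 5 of 10 were negative and the median was -0.017. Of the 95% intervals with all libraries, the lowest bound was 0.766-fold, for Gclc, and the highest 1.24-fold, for Nqo1, each interval taken on its own.

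**Figure D2:**
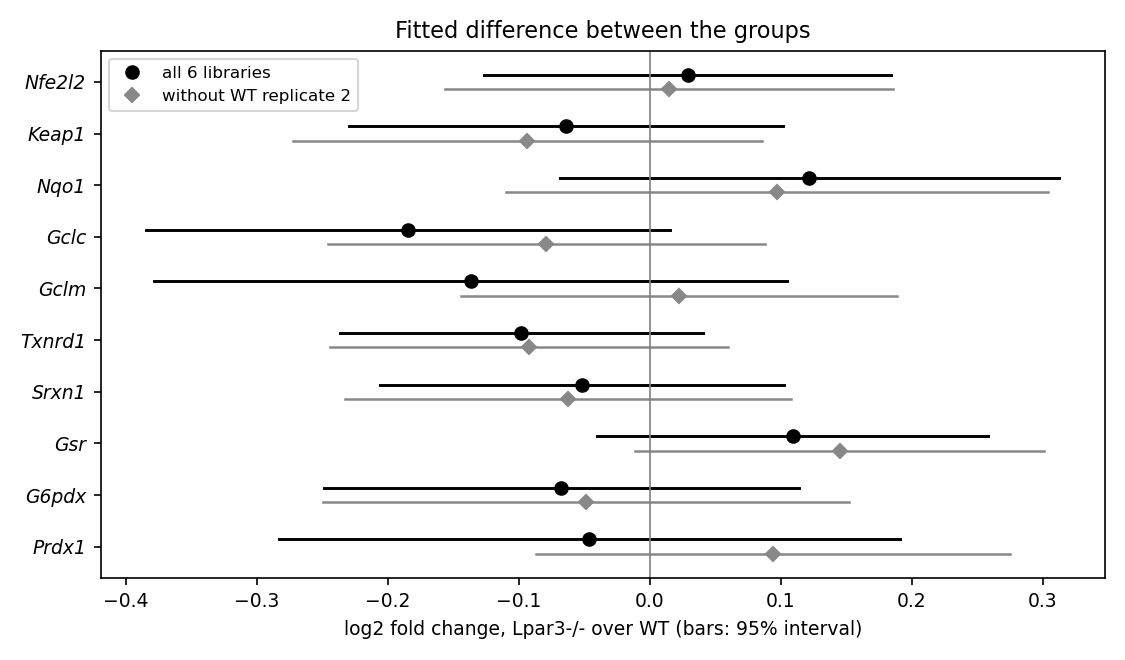
Fitted log2 fold change of each gene, the libraries labelled Lpar3-/- over WT, with its 95% interval, for all 6 libraries (black circles) and without WT replicate 2 (grey diamonds). All 20 intervals include 0, and the estimates of Gclc, Gclm and Prdx1 move to the right without that library.

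The regulators came first in the comparison. Nfe2l2 (ENSMUSG00000015839, GRCm38 chromosome 2, 75675513 to 75704641, minus strand) had 1574, 1411 and 1378 counts in WT, or 88.8, 83.5 and 83.3 CPM. It had 1437, 1480 and 1486 counts in the libraries labelled Lpar3-/-, or 81.8, 93.2 and 85.9 CPM. The highest and the lowest library both carried the Lpar3-/- label, so the WT values lay inside the range of the others. The means were 85.2 ± 3.13 and 87.0 ± 5.76 CPM (SD, n = 3 each), a log2 fold change of 0.029 (SE 0.071, 95% interval from -0.13 to 0.18, edgeR adjusted p = 0.950).

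Keap1, the adaptor that hands NRF2 to the ligase (ENSMUSG00000003308, chromosome 9, 21229730 to 21239361, minus strand), had 47.6, 44.1 and 46.4 CPM in WT and 45.0, 41.2 and 45.9 CPM in the libraries labelled Lpar3-/-. The groups overlapped, and labelled Lpar3-/- replicate 2, the library with the most Nfe2l2, had the least Keap1. Its fitted difference on the log2 scale was -0.064 (SE 0.076, 95% interval from -0.23 to 0.10, edgeR adjusted p = 0.871). The ratio of Nfe2l2 to Keap1 in FPKM was 2.31, 2.34 and 2.22 in WT and 2.25, 2.80 and 2.31 in the libraries labelled Lpar3-/-, so that 1 library lay above the rest. An exon of Keap1 overlaps one of Gm16754, an antisense gene with at most 14 counts in a library. The sources used here do not state whether reads were counted by strand, and without strand the reads of such partners cannot be told apart.

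Glutathione synthesis begins with glutamate-cysteine ligase, and both of its subunits were highest in WT replicate 2. Gclc, which carries the active site (ENSMUSG00000032350, chromosome 9, 77754535 to 77794485, plus strand), had 208.7, 272.9 and 236.1 CPM in WT and 205.5, 214.1 and 211.9 CPM in the libraries labelled Lpar3-/-. Replicate 1 of WT fell inside the range of the latter, and WT replicates 2 and 3 lay above it. The means were 239 ± 32.2 and 211 ± 4.46 CPM (SD, n = 3 each), with a log2 fold change of -0.18 (SE 0.091, 95% interval -0.38 to 0.015, edgeR adjusted p = 0.586). Without WT replicate 2 it was -0.079 (adjusted p = 0.828), and without WT replicate 1 it was -0.27 (adjusted p = 0.183), the lowest adjusted p of any member in any of the 16 alternative fits.

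Gclm, the modifier subunit that raises the ligase's affinity for glutamate (ENSMUSG00000028124, chromosome 3, 122245557 to 122270732, plus strand), had 261.9, 369.7 and 286.8 CPM in WT and 268.1, 291.8 and 275.7 CPM in the libraries labelled Lpar3-/-. Its highest and lowest values were both WT. The log2 fold change of -0.14 (SE 0.11, 95% interval -0.38 to 0.11, edgeR adjusted p = 0.790) became 0.022 without WT replicate 2 (adjusted p = 0.968). The subunits kept a steady proportion. Gclc over Gclm in FPKM was 1.33, 1.23 and 1.38 in WT and 1.28, 1.23 and 1.28 in the libraries labelled Lpar3-/-, or 1.31 ± 0.0728 and 1.26 ± 0.0327 (SD, n = 3 each), with overlapping ranges. Gclm lies 24.0 Mb before Lpar3 on the same chromosome. Its exons overlap those of Gm17494 on the opposite strand and of the pseudogene Gm6061.

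Prdx1 was also highest in WT replicate 2, as the ligase subunits were, but lowest in WT replicate 3. This peroxiredoxin gene (ENSMUSG00000028691, chromosome 4, 116685544 to 116700822, plus strand), whose upstream AP-1 and core letters are printed above, had 583.8, 710.3 and 504.5 CPM in WT and 550.0, 602.9 and 589.1 CPM in the libraries labelled Lpar3-/-. The WT values spread over a range that enclosed all 3 others. EdgeR put the log2 fold change at -0.046 (SE 0.11), with a 95% interval from -0.28 to 0.19 and an adjusted p of 0.948, and without WT replicate 2 it was 0.094 (adjusted p = 0.807). A processed pseudogene, Gm21399, is 98.3% identical to the transcript over 597 bases and had up to 148 counts in a library. How reads that fit both were handled is not given, so the share of Prdx1 reads affected is not known.

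In WT replicate 2, Gclm stood at 1.34 times, Gclc at 1.27 times and Prdx1 at 1.26 times the mean of the other 5 libraries. The other 7 members ran from 0.910 times (Nqo1) to 1.06 times (G6pdx). WT replicate 2 was the highest of the 6 libraries for 4 of 10 members (these 3 and Txnrd1) and for 21.9% of all tested genes, a count made after the data were seen. The same library held the largest summed levels of the injury and macrophage markers given above. It also held the largest proximal tubule sum (33770 CPM) and the smallest sum of markers of other tubule segments (4476 CPM). The part of any of those cells or of injury in these 3 genes was not tested. Between replicates the coefficient of variation was 13.5%, 18.4% and 17.3% for Gclc, Gclm and Prdx1 in WT, and 2.12%, 4.34% and 4.73% in the libraries labelled Lpar3-/-. For the other 7 members it was at most 6.07% in WT and at most 10.8% in the others.

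**Figure D3:**
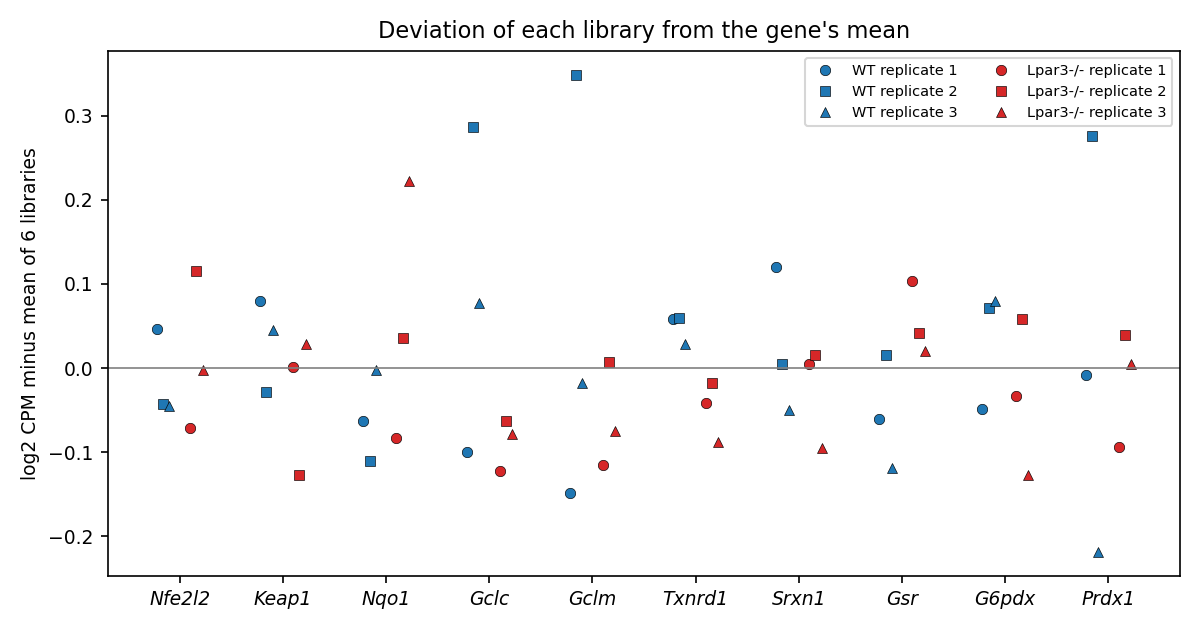
Log2 CPM of each library minus the gene's mean over the 6 libraries (blue WT, red labelled Lpar3-/-, marker shape for the replicate number). WT replicate 2 (blue squares) lies 0.35 above the mean for Gclm, 0.29 for Gclc and 0.28 for Prdx1, while labelled Lpar3-/- replicate 3 (red triangle) lies 0.22 above for Nqo1.

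The enzymes that keep glutathione and thioredoxin reduced gave the only 2 members whose groups did not overlap. These are 2 of 10 members, against 13.7% of all tested genes, and neither passed the test. Txnrd1, the cytosolic thioredoxin reductase (ENSMUSG00000020250, chromosome 10, 82833951 to 82897712, plus strand), had 179.1, 179.3 and 175.5 CPM in WT and 167.2, 169.8 and 161.8 CPM in the libraries labelled Lpar3-/-. Every WT value lay above every other value, with means of 178 ± 2.16 and 166 ± 4.08 CPM (SD, n = 3 each). On the log2 scale the groups differed by -0.098 (SE 0.064), within a 95% interval from -0.24 to 0.041 (edgeR adjusted p = 0.719).

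Gsr, which turns oxidized glutathione back into its reduced form with NADPH (ENSMUSG00000031584, chromosome 8, 33652523 to 33698163, plus strand), showed the opposite order. It had 206.9, 218.1 and 198.7 CPM in WT and 231.8, 222.1 and 218.8 CPM in the libraries labelled Lpar3-/-. The gap was small, since WT replicate 2 reached 218.1 CPM and the lowest of the others 218.8 CPM. Its fitted difference on the log2 scale was 0.11 (SE 0.068, 95% interval from -0.040 to 0.26, edgeR adjusted p = 0.703).

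Srxn1, a sulfiredoxin that repairs overoxidized peroxiredoxins (ENSMUSG00000032802, chromosome 2, 152105516 to 152111376, plus strand), had the most matches among the stretches printed above. Its levels were 101.9, 94.1 and 90.5 CPM in WT and 94.0, 94.7 and 87.7 CPM in the libraries labelled Lpar3-/-. WT replicate 1 was highest and the remaining values overlapped. EdgeR put the log2 fold change at -0.052 (SE 0.071), with a 95% interval from -0.21 to 0.10 and an adjusted p of 0.894.

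Nqo1, a quinone reductase often read as the marker gene of NRF2 activity (ENSMUSG00000003849, chromosome 8, 107388225 to 107403206, minus strand), had the largest positive fold change of the 10. Its levels were 44.9, 43.5 and 46.9 CPM in WT and 44.3, 48.1 and 54.8 CPM in the libraries labelled Lpar3-/-. Labelled Lpar3-/- replicate 3 was highest, and replicate 1 of that group lay within the WT range. On the log2 scale the groups differed by 0.12 (SE 0.087), within a 95% interval from -0.069 to 0.31 (edgeR adjusted p = 0.755).

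G6pdx, the glucose-6-phosphate dehydrogenase that feeds NADPH to these reductases (ENSMUSG00000031400, chromosome X, 74409483 to 74429194, minus strand), had 30.9, 33.5 and 33.7 CPM in WT and 31.2, 33.3 and 29.2 CPM in the libraries labelled Lpar3-/-. The groups overlapped, and the fitted log2 difference was -0.067 (SE 0.083, 95% interval from -0.25 to 0.11, edgeR adjusted p = 0.878). Its retrogene copy G6pd2, 93.2% identical over 2332 bases, had 0 counts in every library. An exon of G6pdx overlaps one of Ikbkg on the opposite strand.

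The genes whose pattern over the 6 libraries was most like that of Nfe2l2 were Asf1a, Irak4 and Paf1, with Pearson correlations of log2 CPM of 0.980, 0.977 and 0.971. They were the top 3 of 9520 tested genes outside the members with a mean of at least 10 CPM, over 6 libraries that share their scaling, and are given as a description. No member was among the candidates by construction.

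The wider pathway held 2 called genes among the 97 tested, and they went in opposite directions. These 4 lists were 24 regulators of NRF2, 36 other known NRF2 targets, 31 genes of the glutathione and thioredoxin systems and 12 of NADPH supply. Their medians were -0.0071, 0.045, 0.0028 and 0.033 on the log2 fold change scale, where the median of all tested genes was -0.0036. Together 52 of 97 had a positive and 45 a negative fold change, and 15 had an unadjusted p below 0.05, where 9.18% of all genes tested did and 0.374% were called. The groups did not overlap for 16 of the 97 (16.5%), against 13.7% of all genes tested.

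**Figure D4:**
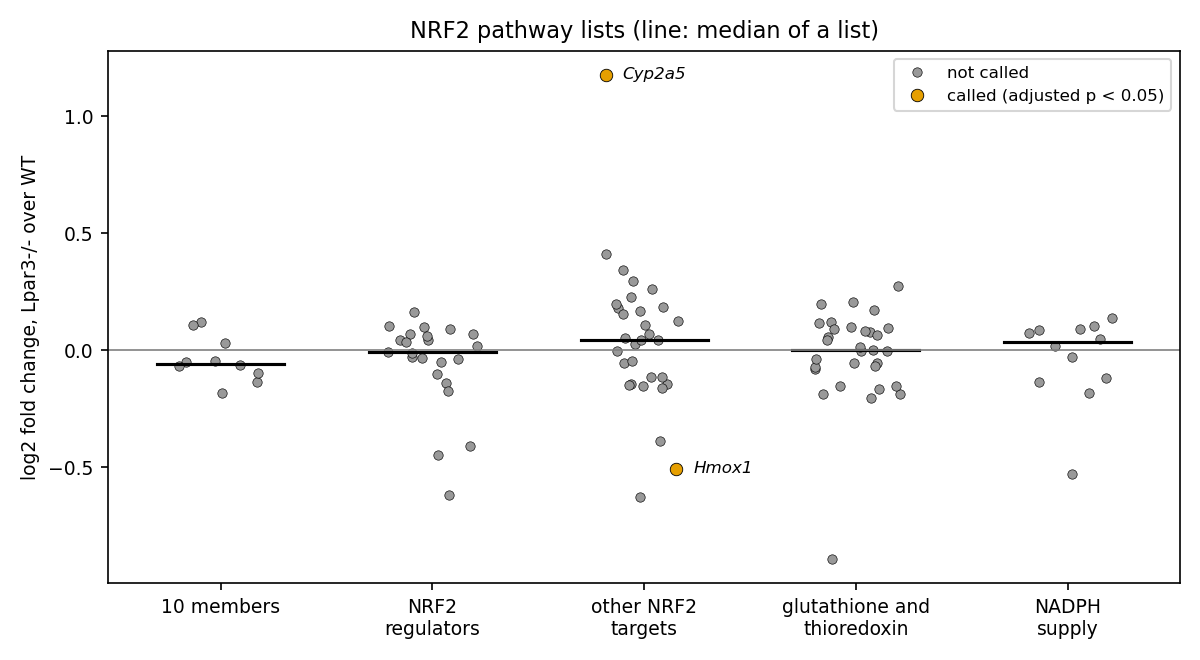
Log2 fold change, the libraries labelled Lpar3-/- over WT, of every tested gene of the 10 members and the 4 wider lists, with a line at each list's median and called genes in orange. The members lie between -0.18 and 0.12, and the called genes are Cyp2a5 at 1.18 and Hmox1 at -0.51.

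Among the 31 tested targets outside the members, Cyp2a5 rose and Hmox1 fell. Cyp2a5, a cytochrome P450 that oxidizes coumarin and nicotine, had 85.8 to 100.3 CPM in WT and 200.1 to 218.1 CPM in the libraries labelled Lpar3-/- (log2 fold change 1.18, SE 0.077, edgeR adjusted p = 2.76e-05). The groups stood well apart, the call held in all 16 alternative fits, and reads may be shared with its close paralog Cyp2a4. Hmox1, the inducible heme oxygenase, which hypoxia-inducible factors and heme also regulate, had 62.5, 77.2 and 75.4 CPM in WT and 54.0, 51.3 and 46.0 CPM in the libraries labelled Lpar3-/-. Its log2 fold change was -0.51 (SE 0.094, edgeR adjusted p = 0.0462). That call was lost without WT replicate 2 (0.0779) or 3 (0.141) and without labelled Lpar3-/- replicate 1 (0.108), 2 (0.181) or 3 (0.287). It was also lost with limma-voom (0.0561), the stricter filter (0.0510), the replicate block (0.0588) and the 3 fits on FPKM, so that 11 of the 16 alternatives did not call Hmox1. Over the 16 the adjusted p ran from 1.50e-06 to 0.392. The injury and macrophage markers, whose sums did not overlap between the groups, were also higher in WT. Negative fold changes were found for all 7 tested adipocyte, 9 of 10 injury and 10 of 10 tested macrophage markers, against 51.1% of all genes. Their median log2 fold changes were -1.51, -0.70 and -0.56. Of these lists 4, 5 and 5 genes did not overlap between the groups, against 13.7% of all genes. By edgeR 6, 8 and 5 had an unadjusted p below 0.05, against 9.18% of all genes, and none was called. The sum of 8 markers of other tubule segments was lower in WT, without overlap. The part of any of these markers in the difference of Hmox1 was not tested.

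Other listed targets did not pass. Those with the next lowest p were Cbr1, a carbonyl reductase (49.5 ± 2.81 and 59.3 ± 0.839 CPM), Akr1b8, an aldo-keto reductase (4.26 ± 0.307 and 2.76 ± 0.124 CPM), and Gsta3, a glutathione transferase (31.4 ± 7.54 and 41.8 ± 2.48 CPM, SD, n = 3 each). Their edgeR adjusted p-values were 0.201, 0.328 and 0.335, and the 2 former did not overlap between groups. Of all 31 tested targets, Cyp2a5 and Hmox1 included, the groups did not overlap for 5 (16.1%), against 13.7% of all genes. By edgeR 5 targets with a positive and 2 with a negative fold change had an unadjusted p below 0.05, against 9.18% of all genes. Gsta3 passed without WT replicate 1 (edgeR adjusted p = 0.0118) and with no filter on low counts (0.00202). Of the 36 targets, 5 were too low to test, namely Slc7a11, Gpx2, Gsta1, Gstm3 and Aldh3a1. Slc7a11, the cystine transporter gene, had 1 to 11 counts in a library.

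None of the 23 tested regulators was called by edgeR, and 3 had an unadjusted p below 0.05, against 9.18% of all genes. The groups did not overlap for 4 of the 23, against 13.7% of all genes. DESeq2 called 1, Maff, and limma-voom 0. With no filter on low counts edgeR called Maff too (adjusted p = 0.00166). Maff, a small MAF protein that can pair with NRF2, came nearest, with 14.6, 16.9 and 14.6 CPM in WT and 9.17, 11.9 and 9.02 CPM in the libraries labelled Lpar3-/-. Every WT value lay above the others, with a log2 fold change of -0.62 (SE 0.14, edgeR adjusted p = 0.1004, DESeq2 adjusted p = 0.0234). Bach2, a repressor that competes for the same elements, followed at 7.34 ± 0.758 and 5.39 ± 0.352 CPM (SD, n = 3 each, edgeR adjusted p = 0.389). Sqstm1, whose protein p62 binds KEAP1, had 831 ± 11.7 and 754 ± 8.69 CPM without overlap (edgeR adjusted p = 0.560). Dcaf11, an adaptor of another ligase for NRF2, had 172 ± 4.98 and 193 ± 8.09 CPM without overlap, and Cul3, the ligase scaffold, 139 ± 10.5 and 150 ± 2.74 CPM (edgeR adjusted p = 0.469 and 0.745). Of the main partners and the main repressor, named for their role, Mafg (108 ± 11.9 and 106 ± 2.55 CPM), Mafk (53.4 ± 3.11 and 51.6 ± 1.94 CPM) and Bach1 (52.6 ± 2.61 and 52.3 ± 2.30 CPM) overlapped between groups.

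Genes next to the members in glutathione and thioredoxin metabolism gave 0 calls among 31 by edgeR, and DESeq2 and limma-voom also called 0. By edgeR 4 had an unadjusted p below 0.05, against 9.18% of all genes. The groups did not overlap for 6, against 13.7% of all genes. Gss, which completes glutathione after the ligase step, had 306.0, 322.2 and 328.9 CPM in WT and 295.5, 282.7 and 283.2 CPM in the libraries labelled Lpar3-/-, without overlap (log2 fold change -0.15, SE 0.067, edgeR adjusted p = 0.529). Chac2, which degrades glutathione, had 29.4 ± 1.56 and 25.8 ± 1.25 CPM (SD, n = 3 each). Prdx4, the peroxiredoxin of the endoplasmic reticulum, had 15.4 ± 1.49 and 18.7 ± 1.52 CPM. Sesn3, a sestrin, had 81.2 ± 6.99 and 70.4 ± 4.89 CPM, and Glrx2, a mitochondrial glutaredoxin, 37.4 ± 2.96 and 42.1 ± 1.67 CPM. The edgeR adjusted p-values of these 4 lay between 0.456 (Sesn3) and 0.566 (Glrx2).

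Of the 12 tested genes of NADPH supply, edgeR, DESeq2 and limma-voom called 0. By edgeR 1 of them had an unadjusted p below 0.05, against 9.18% of all genes. That was Mthfd2, of mitochondrial folate metabolism (5.19 ± 1.41 and 3.58 ± 0.519 CPM, SD, n = 3 each, edgeR adjusted p = 0.535). Pgd, the dehydrogenase that follows G6pdx in the pentose phosphate pathway, had 96.3, 91.6 and 94.2 CPM in WT and 85.2, 88.4 and 86.1 CPM in the libraries labelled Lpar3-/-. It was the 1 gene of the list whose groups did not overlap (log2 fold change -0.12, SE 0.063, edgeR adjusted p = 0.620). Me1, malic enzyme, was highest in WT replicate 2 at 751.6 CPM, with 544.5 to 615.0 CPM in the other 5 libraries. Idh1 and Idh2, the cytosolic and mitochondrial isocitrate dehydrogenases, had 430 ± 54.4 and 461 ± 0.612 CPM, and 560 ± 66.6 and 616 ± 16.1 CPM (SD, n = 3 each).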

How the data were processed

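Kidney mRNA was measured in 6 libraries, 3 per genotype, grouped by the sample titles. The deposited counts are whole reads per gene, not normalized. HISAT2 2.0.5, featureCounts 1.5.0-p3, DESeq2 1.20.0 and the build GRCm38 are named per the submitters' processing notes. Strandedness, annotation release and the handling of multi-mapping reads remain not given in the sources used here. The deposited FPKM values of the authors equalled counts divided by gene length and 1 effective size per library, within a relative deviation of 4.11e-08 (genes with at least 20 counts).

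The 377 rows without a gene name, 0.259% to 0.362% of a library's counts, were left out. Tests used edgeR 4.0.16 in R 4.3.3 (quasi-likelihood, TMM, default filter, all 6 libraries, no covariate), with Benjamini-Hochberg adjustment over all genes tested and calls at an adjusted p below 0.05. The fold change divided by the root of F gave its standard error. Log2 CPM used a prior count of 2. The scripts were tested on simulated data.

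Alternatives were DESeq2 1.42.0, limma-voom (limma 3.58.1), other scalings, filters and FPKM pseudocounts, the replicate number as a block, and each library left out. Copies of the members were sought with BLAST 2.17.0 (at least 90% identity over 200 bases) in GENCODE transcripts, exon overlaps in the same annotation, whose coordinates equalled those of the files for all 10 members. Promoter windows are from RefSeq. The members, the lists and the tests were chosen with earlier results of these data known. Named beside the members were Lpar3, Hmox1, the called genes of each pathway list and the genes of lowest p up to 5 a list, and the 3 genes most like Nfe2l2.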

Additional observations from a re-analysis of the deposited data

How the results depend on the processing

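No member was called in any of the 16 alternatives, in which members' log2 fold changes ran from -0.27 to 0.19 and adjusted p-values were at least 0.183. Of 160 values, 157 kept their direction and stayed uncalled. Signs turned for Nfe2l2 without labelled Lpar3-/- replicate 2 (-0.023), and for Gclm (0.022) and Prdx1 (0.094) without WT replicate 2. The sign of Lpar3 turned without WT replicate 3 (-0.020) or labelled Lpar3-/- replicate 1 (-0.035) or 2 (-0.014). Of these values that of Prdx1 lay furthest from 0, and with all 6 libraries Prdx1 had -0.046. Over the fits with a library left out Nfe2l2 spanned -0.023 to 0.072 and Gclm -0.24 to 0.022. Prdx1 spanned -0.15 to 0.094 and Lpar3 -0.035 to 0.062. Of all genes, 57 were called. DESeq2 called 179, no filter 520, limma 9 on log2(FPKM + 1), 13 on log2(FPKM + 0.1) and 4 on the former without a filter, and leaving out a library gave 12 (without labelled Lpar3-/- replicate 1 or 3) to 149 (without WT replicate 1), with 26 without labelled Lpar3-/- replicate 2. Of the 97 wider pathway genes, 2 were called. The count was 1 with limma-voom, the stricter filter (a mean of 1 CPM and 10 counts in 3 libraries), the replicate block and each of the 3 FPKM fits, 5 without a filter, and 1 to 3 with a library left out. Cyp2a5 was called in every fit. The cause was not tested. Same-numbered libraries did not deviate together (correlations of 0.0026, 0.0051 and 0.051, and not every library was nearest its own number). The labels state no pairing, and such correlations with 3 libraries per group cannot exclude one. With the replicate block the members gave 0 calls and all genes 80. Each member had 506 counts or more in each library. For G6pdx, Keap1 and Nqo1 counting alone gives a CV of 4.24%, 3.57% and 3.61%, close to the 4.90%, 3.81% and 3.76% seen in WT, and for Txnrd1 1.82% against 1.21%. In the libraries labelled Lpar3-/- the CVs of these 4 were 6.42%, 5.69%, 10.8% and 2.46% in that order, each above its counting value. In WT, counting alone thus comes near or above the spread of these 4, and each spread rests on only 3 libraries.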

Other observations

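Of the pathway lists, Nnt and Chac1 are added here, chosen after their values were seen. Nnt, the mitochondrial transhydrogenase that makes NADPH, had only 14, 22 and 36 counts in WT and 26, 15 and 35 in the libraries labelled Lpar3-/-, or 1.42 ± 0.701 and 1.48 ± 0.539 CPM (SD, n = 3 each). Idh2, another mitochondrial source of NADPH, had 560 ± 66.6 and 616 ± 16.1 CPM in the same libraries. A deletion in Nnt is known from the C57BL/6J strain, and the strain of these mice is not stated in the labels. Whether these mice carry it was not tested. Chac1, a glutathione-degrading enzyme induced by cellular stress, had the most negative fold change of the pathway lists at -0.89, from 0.790 to 2.78 CPM in WT and 0.578 to 1.45 CPM in the others. The groups overlapped, and it did not pass (edgeR adjusted p = 0.634).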
